A study of Homo sapiens with 9 samples.

Results

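The integrated stress response genes described here are ATF4, DDIT3, ATF3, CEBPB, TRIB3, PPP1R15A, CHAC1, ASNS, SESN2 and DDIT4. They were chosen by name as 10 of the 58381 Ensembl gene entries measured, and their rows were found by Ensembl gene identifier through GENCODE release 29 symbols. All 10 members were among the 13777 genes that passed the filter on low values (at least 1 FPKM in at least 3 libraries). RNA sequencing was done on HK1 cells, a line of human nasopharyngeal carcinoma, in 9 libraries of 3 groups. These were cells given siRNA against E2F3 for 48 h (si-E2F3, n = 3), cells given siRNA against E2F1 for 48 h (si-E2F1, n = 3) and cells given a non-targeting siRNA for 48 h (Control, n = 3), all at 100 nM and all in DMEM with serum. E2F1 and E2F3 are transcription factors of the retinoblastoma pathway that switch on genes needed to enter S phase. The labels give 1 siRNA treatment per target and no siRNA sequence, so that loss of the factor and any other effect of that siRNA cannot be told apart. Levels are FPKM (fragments per kilobase of transcript relative to all fragments of the library), which are per length and can be compared between genes.

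The integrated stress response starts with kinases that sense endoplasmic reticulum stress, lack of amino acids, lack of haem or double-stranded RNA and phosphorylate the alpha subunit of the translation factor eIF2. This lowers protein synthesis as a whole while the mRNA of ATF4, through upstream open reading frames, is translated better, and ATF4 then switches on genes of amino acid supply, of further transcription factors and of feedback. DDIT3 is the factor CHOP, known for its part in death under prolonged stress, and PPP1R15A is GADD34, which leads a phosphatase back to eIF2 and so ends the response.

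Short sequences upstream of the members' start sites are shown first, because ATF4 and its relatives bind known DNA elements. RefSeq promoter windows (GRCh38.p14; 250 bases upstream of each start site, 17 windows for the 10 members) were searched on both strands for TGATGNAA, the core of the element bound by ATF4 with a C/EBP partner, for TGACGTCA, the cyclic AMP response element, and for TTTNNCGC, a relaxed form of the E2F element. The first motif was in windows of 3 members, against 3.89% of 27305 genes and 3.14% of 35116 windows. Below, 30 bases around each match are given on the strand of the motif, which is in capitals. In CHAC1 the match lay up to 209 bases upstream of a start site (chr15:40953251-40953280, minus strand), in ASNS 68 bases (chr7:97872458-97872487, minus strand) and in ATF3 191 bases (chr1:212565205-212565234, plus strand).
CHAC1: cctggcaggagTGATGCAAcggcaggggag
ASNS: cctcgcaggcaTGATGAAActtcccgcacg
ATF3: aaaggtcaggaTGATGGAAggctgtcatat
PPP1R15A: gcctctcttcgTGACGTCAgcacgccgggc
ATF4: ccctccctcccTTTGACGCcccaaccgttt
The PPP1R15A match to TGACGTCA, which reads the same on both strands, lay 58 bases upstream (chr19:48872352-48872381, plus strand), and 2.03% of genes had such a match. TTTNNCGC was found for ATF4 alone among the members, 126 bases upstream of a start site (chr22:39520422-39520451, minus strand), against 7.15% of genes. The matches did not overlap each other. The windows end at RefSeq start sites, some of which lie inside longer GENCODE transcripts of the same gene: all 250 bases of the ATF4 and CHAC1 windows were annotated as exon of those genes, as were 134 bases of the ASNS, 73 bases of the ATF3 and 29 bases of the PPP1R15A window shown. These are matches of letters, and binding was not measured.

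A second feature of the known mechanism, an ATG in the leader of the mRNA before the coding sequence, was counted in 1 principal GENCODE transcript per gene. Of the 10 members, 7 had at least 1 upstream ATG, against 53.8% of 11837 tested coding genes. ATF4 had 7 in a leader of 882 bases, TRIB3 had 3 in 553 bases, and DDIT3, ASNS and PPP1R15A had 2 each. ATF3 and SESN2 had 1 each, and CHAC1, DDIT4 and CEBPB had 0, for CHAC1 in a leader of only 20 bases. The median leader of the tested coding genes had 207 bases, and the count was not adjusted for leader length. Which start site or transcript HK1 cells used was not determined.

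The members did not move as a block. After E2F3 siRNA, 6 of the 10 fell and 1, DDIT4, rose against Control, with CHAC1 and SESN2 at 0.265 and 0.350 times their Control means. After E2F1 siRNA, 3 members rose (TRIB3, ATF3 and ASNS) and 4 fell (DDIT4, SESN2, CHAC1 and CEBPB). Set directly against si-E2F1, 8 members were lower in si-E2F3 and DDIT4 was higher. The 2 comparisons with Control share the Control libraries.

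**Figure D1:**
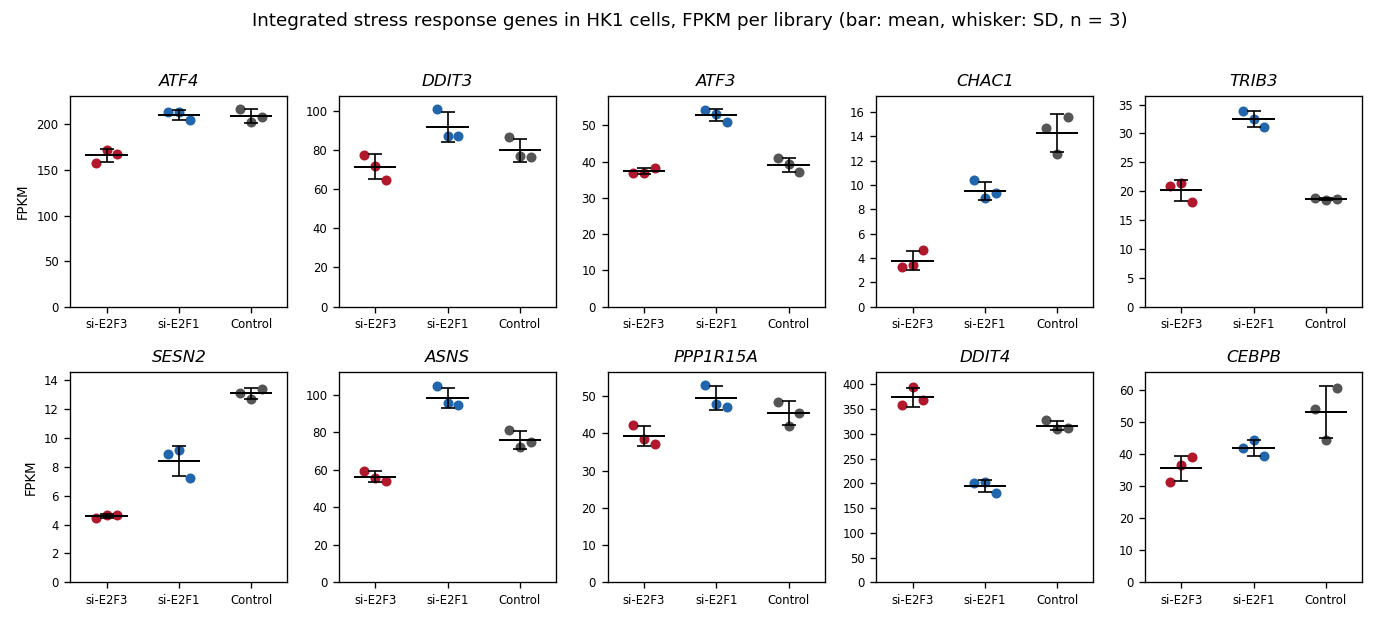
FPKM (vertical axes, starting at 0) of each member in every library of si-E2F3, si-E2F1 and Control; points are libraries, bars are means and whiskers are SDs of 3 libraries. CHAC1 and SESN2 step up over the 3 groups without overlap, TRIB3 and ATF3 stand apart in si-E2F1 only, and DDIT4 is lowest in si-E2F1.

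The background to these counts was wide. In the comparison of si-E2F3 with Control, 37.6% of all tested genes were called at a limma adjusted p under 0.05 (21.1% higher and 16.4% lower), against 7 of 10 members. In that of si-E2F1 with Control, 37.8% were called (20.5% higher and 17.3% lower), also against 7 of 10 members. Directly between si-E2F3 and si-E2F1, 45.5% were called (23.5% higher and 22% lower), against 9 of 10 members. The median log2 fold change over the members was -0.27, 0.06 and -0.42 in these comparisons, beside 0.04, 0.03 and 0.02 over all tested genes. Called changes of at least 1 on the log2 scale were found for CHAC1 and SESN2 in si-E2F3 against Control, where 2.05% of genes had one, and for CHAC1 between si-E2F3 and si-E2F1, where 2.99% had one. In si-E2F1 against Control no member changed by that much, and 2.02% of genes did.

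Of the libraries as a whole, the transcript aimed at was lowered in each group: E2F3 fell by 1.10 on the log2 scale in si-E2F3 and E2F1 fell by 1.30 in si-E2F1, each against Control. The factor not aimed at had a somewhat higher mean than in Control. E2F3 averaged 28.7 FPKM in si-E2F1 and 25.4 FPKM in Control, and E2F1 averaged 21.7 FPKM in si-E2F3 and 19.9 FPKM in Control. Mitochondrially encoded genes held 16.4 to 17.1% of all FPKM in si-E2F3, 14.0 to 15.3% in si-E2F1 and 15.6 to 16.5% in Control, so that si-E2F1 lay below every Control library. Steps in the FPKM of low genes put the depth of the libraries at 0.852 to 1.26 times that of Control replicate 1; the absolute depth is unknown. All 8 epithelial markers listed were expressed, with summed levels of 1247 to 1330 FPKM in si-E2F3, 1320 to 1402 FPKM in si-E2F1 and 1926 to 1959 FPKM in Control. Within these sums KRT17 averaged 368 FPKM in si-E2F3, 400 FPKM in si-E2F1 and 767 FPKM in Control. EPCAM averaged 177, 195 and 175 FPKM in the same order, and KRT19 was near the filter at 1.11, 1.56 and 1.70 FPKM. Of 13 markers of immune, endothelial and fibroblast cells, only CD68 and COL1A1 passed the filter. The summed fibroblast markers were at 13.9 to 16.6 FPKM in si-E2F3, 17.8 to 20.5 FPKM in si-E2F1 and 13.7 to 15.1 FPKM in Control, nearly all of it COL1A1, which rose by 0.45 in si-E2F1 against Control (adjusted p = 0.00179). In each knockdown 6 of the 8 epithelial markers fell against Control; the part of these marker changes, and of the mitochondrial share, in those of the members was not tested. In bulk RNA, fewer cells with a transcript and less transcript per cell cannot be told apart. Because separate cultures are not named in the labels, the p-values describe the spread between libraries, which may be technical.

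ATF4 (22:39519695-39522685 in GRCh38), the activator at the head of the response, was at 158.21, 171.64 and 168.01 FPKM in si-E2F3 libraries, at 213.17, 213.32 and 204.54 FPKM in si-E2F1 libraries and at 217.34, 202.22 and 208.04 FPKM in Control libraries. All si-E2F3 libraries lay below all others, while si-E2F1 and Control overlapped. ATF4 mRNA fell by 0.33 on the log2 scale in si-E2F3 against Control (SE 0.04; limma adjusted p = 2.55e-04) and by 0.34 against si-E2F1 (adjusted p = 1.59e-04). In si-E2F1 against Control the difference was 0.01 (95% interval -0.09 to 0.10; adjusted p = 0.901). ATF4 protein, the quantity that phosphorylation of eIF2 controls, was not measured.

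Among the transcription factors that act with or after ATF4, ATF3 and CEBPB moved in different ways and DDIT3 did not pass the test against Control. DDIT3 (12:57516588-57521737) was at 77.53, 71.55 and 64.84 FPKM in si-E2F3, at 100.61, 86.88 and 87.31 FPKM in si-E2F1 and at 86.64, 76.66 and 76.19 FPKM in Control. The si-E2F1 libraries lay just above Control and clear of si-E2F3, and si-E2F3 overlapped Control. The log2 fold change was -0.16 in si-E2F3 against Control (95% interval -0.35 to 0.02; adjusted p = 0.148) and 0.20 in si-E2F1 against Control (95% interval 0.01 to 0.38; adjusted p = 0.0882). Directly, DDIT3 was lower in si-E2F3, at 0.778 times the si-E2F1 mean (log2 fold change -0.36, SE 0.08; adjusted p = 0.00562). DDIT3 shares 355 exon bases, 27.2% of its own, with MARS on the opposite strand, a far more abundant transcript at mean levels of 318.7 FPKM in si-E2F3, 429.5 FPKM in si-E2F1 and 521.9 FPKM in Control. Whether the authors' counting used strand is not given in the sources used here, so that reads of the shared bases may belong to either gene, and their part in the DDIT3 values was not tested.

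ATF3 (1:212565334-212620777), a factor induced by many stresses, was at 36.78, 36.89 and 38.22 FPKM in si-E2F3, at 54.23, 53.17 and 51.02 FPKM in si-E2F1 and at 41.00, 39.39 and 37.07 FPKM in Control. It was high in every si-E2F1 library, and the other groups overlapped. ATF3 rose by 0.42 on the log2 scale in si-E2F1 against Control (SE 0.05; adjusted p = 1.16e-04), whereas the change in si-E2F3 was -0.07 (95% interval -0.18 to 0.04; adjusted p = 0.311). The direct difference, si-E2F3 minus si-E2F1, was -0.49 (adjusted p = 3.45e-05).

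CEBPB (20:50190734-50192689), a C/EBP factor that pairs with ATF4 on its elements, was at 31.30, 36.59 and 39.03 FPKM in si-E2F3, at 41.90, 44.34 and 39.43 FPKM in si-E2F1 and at 54.13, 44.51 and 60.69 FPKM in Control. The groups did not overlap but nearly touched, at 39.03 FPKM in si-E2F3 beside 39.43 FPKM in si-E2F1. Likewise, 44.34 FPKM in si-E2F1 lay beside 44.51 FPKM in Control. The Control libraries were the most widely spread. CEBPB fell by 0.56 in si-E2F3 (SE 0.11; adjusted p = 0.00358) and by 0.33 in si-E2F1 (SE 0.11; adjusted p = 0.0441), each against Control. The second call did not hold when any of 6 libraries was left out, with adjusted p = 0.109 without Control replicate 1, 0.149 without Control replicate 3, 0.0935, 0.0578 and 0.125 without si-E2F1 replicates 1, 2 and 3, and 0.0559 without si-E2F3 replicate 2. Between si-E2F3 and si-E2F1 CEBPB was not called (-0.23, 95% interval -0.48 to 0.02; adjusted p = 0.121).

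The members known for feedback are TRIB3 and PPP1R15A. TRIB3 (20:362835-397559), a pseudokinase that binds ATF4 and CHOP and restrains them, was at 20.88, 21.50 and 18.12 FPKM in si-E2F3, at 33.97, 32.54 and 31.09 FPKM in si-E2F1 and at 18.80, 18.53 and 18.63 FPKM in Control. Its si-E2F1 libraries stood clear above all others, at 1.74 times the Control mean, while si-E2F3 overlapped Control. TRIB3 rose by 0.77 on the log2 scale in si-E2F1 (SE 0.07; adjusted p = 1.81e-05), the strongest rise among the members, and differed by 0.10 in si-E2F3 (95% interval -0.05 to 0.25; adjusted p = 0.254), each against Control. Without si-E2F3 replicate 3, the lowest of its group, the difference between si-E2F3 and Control was 0.18 (adjusted p = 0.0465). Directly, TRIB3 was lower in si-E2F3 than in si-E2F1 by 0.67 (adjusted p = 3.54e-05).

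PPP1R15A (19:48872392-48876057) was at 42.16, 38.35 and 37.06 FPKM in si-E2F3, at 53.03, 47.87 and 47.13 FPKM in si-E2F1 and at 48.42, 42.06 and 45.52 FPKM in Control. The highest si-E2F3 library was level with the lowest Control library, and all si-E2F3 libraries lay below si-E2F1. PPP1R15A fell by 0.20 in si-E2F3 against Control (SE 0.07; adjusted p = 0.0453). Leaving out Control replicate 1 or 3, si-E2F1 replicate 2 or 3, or si-E2F3 replicate 2 or 3 took the adjusted p to 0.151, 0.104, 0.0562, 0.0521, 0.106 and 0.139 in that order, each above the threshold. In si-E2F1 the difference from Control was 0.12 (95% interval -0.04 to 0.28; adjusted p = 0.214), and directly si-E2F3 was lower than si-E2F1 by 0.33 (adjusted p = 0.00431).

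CHAC1 (15:40952962-40956519), an enzyme that breaks down glutathione and is among the genes most strongly driven by ATF4, gave the largest fall of all members. It was at 3.25, 3.43 and 4.69 FPKM in si-E2F3, at 10.38, 8.90 and 9.31 FPKM in si-E2F1 and at 14.68, 12.58 and 15.64 FPKM in Control. No groups overlapped, with si-E2F3 lowest and Control highest. CHAC1 fell by 1.68 on the log2 scale in si-E2F3 (SE 0.12; adjusted p = 6.63e-06) and by 0.54 in si-E2F1 (SE 0.12; adjusted p = 0.0066), each against Control. Between the knockdowns it was lower in si-E2F3 by 1.15 (adjusted p = 5.36e-05). At a few FPKM the log2(FPKM + 1) scale understates the change: against Control the mean fell by 73.5% in si-E2F3 and fell by 33.4% in si-E2F1.

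**Figure D2:**
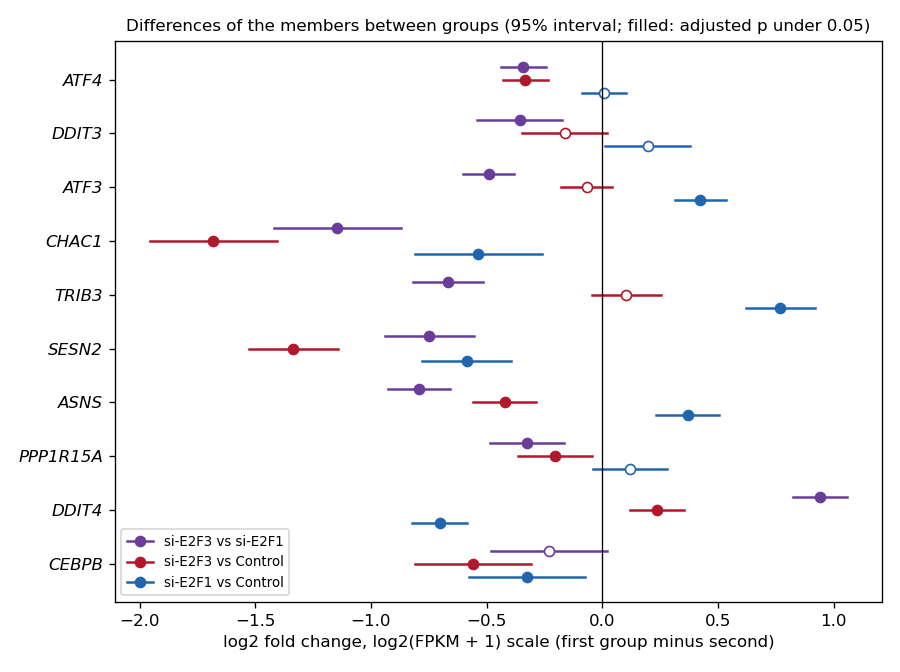
Log2 fold changes of the 10 members on the log2(FPKM + 1) scale (horizontal axis) with 95% intervals, for si-E2F3 against si-E2F1, si-E2F3 against Control and si-E2F1 against Control; filled points had a limma adjusted p under 0.05. The 2 comparisons with Control share its libraries; for ASNS and DDIT4 their points lie on opposite sides of 0.

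The members that act on amino acids and on the growth kinase mTORC1 are ASNS, SESN2 and DDIT4. ASNS (7:97852118-97872542), asparagine synthetase and the classical amino acid response gene, was at 59.43, 55.83 and 53.73 FPKM in si-E2F3, at 104.38, 95.72 and 94.63 FPKM in si-E2F1 and at 81.06, 71.91 and 74.62 FPKM in Control. The groups formed 3 separate ranges with Control in the middle. ASNS fell by 0.42 in si-E2F3 (SE 0.06; adjusted p = 4.71e-04) and rose by 0.37 in si-E2F1 (SE 0.06; adjusted p = 9.83e-04), each against Control, and directly it was lower in si-E2F3 by 0.79 (adjusted p = 5.48e-06). An overlapping transcript on the same strand, AC079781.5, shares 1985 exon bases with ASNS and was at no more than 0.35 FPKM on average in any group.

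SESN2 (1:28259527-28282491), sestrin 2, a leucine sensor and inhibitor of mTORC1, was at 4.45, 4.63 and 4.67 FPKM in si-E2F3, at 8.88, 9.16 and 7.21 FPKM in si-E2F1 and at 13.15, 12.69 and 13.42 FPKM in Control. As for CHAC1, the groups were separate, lowest in si-E2F3 and highest in Control. SESN2 fell by 1.34 in si-E2F3 (SE 0.09; adjusted p = 3.35e-06) and by 0.59 in si-E2F1 (SE 0.09; adjusted p = 5.14e-04), each against Control. The direct difference, si-E2F3 minus si-E2F1, was -0.75 (adjusted p = 8.78e-05).

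DDIT4 (10:72273920-72276036), also called REDD1, restrains mTORC1 through the TSC complex and is known to respond to hypoxia and glucocorticoids too. It was at 358.10, 394.72 and 367.94 FPKM in si-E2F3, at 199.62, 202.21 and 180.91 FPKM in si-E2F1 and at 327.29, 310.25 and 312.31 FPKM in Control. Again the groups were separate, but si-E2F3 was highest and si-E2F1 lowest. DDIT4 rose by 0.24 in si-E2F3 (SE 0.05; adjusted p = 0.00602) and fell by 0.70 in si-E2F1 (SE 0.05; adjusted p = 6.86e-06), each against Control. Directly, si-E2F3 was higher than si-E2F1 by 0.94 (adjusted p = 7.73e-07), or 1.92 times its mean. Thus the mTORC1 inhibitors SESN2 and DDIT4, both lower in si-E2F1, differed in direction in si-E2F3.

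Counted over groups that do not overlap, 6 of 10 members were apart between si-E2F3 and Control, 8 between si-E2F1 and Control and all 10 between si-E2F3 and si-E2F1. The background shares of tested genes without overlap were 49.5%, 50.3% and 53.8%. ASNS and DDIT4 were called in opposite directions in the knockdowns against Control, as were 4.44% of all tested genes.

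The levels of the members spanned a wide range within each group. In si-E2F3 the order ran from DDIT4 (374 ± 19.0 FPKM, SD, n = 3) through ATF4 (166 ± 6.95), DDIT3 (71.3 ± 6.35) and ASNS (56.3 ± 2.88) to PPP1R15A, ATF3 and CEBPB, whose neighbours overlapped at 35.6 to 39.2 FPKM. TRIB3 followed, and SESN2 (4.58 ± 0.117 FPKM) and CHAC1 (3.79 ± 0.785 FPKM) came last and overlapped. In si-E2F1 ATF4 was first (210 ± 5.03 FPKM) and DDIT4 second (194 ± 11.6 FPKM), ASNS and DDIT3 overlapped, ATF3 and PPP1R15A overlapped, and CHAC1 and SESN2 again overlapped at the end. In Control the order began with DDIT4 (317 ± 9.30 FPKM) and ATF4 (209 ± 7.63 FPKM), with overlap between DDIT3 and ASNS, between CEBPB and PPP1R15A, and between CHAC1 and SESN2. Pseudogenes named after ATF4 and ASNS did not exceed 0.24 FPKM in any library.

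The genes that set the response in motion were examined next. Counts in this and the later lists stand beside the shares of all tested genes called against Control. These were 21.1% higher and 16.4% lower in si-E2F3, and 20.5% higher and 17.3% lower in si-E2F1. No difference of a list from these shares was tested. Of the 4 eIF2alpha kinases, 0 were called by limma in si-E2F3 against Control (also 0 at an unadjusted p under 0.05), and 2 fell in si-E2F1. EIF2AK3, the kinase PERK of the endoplasmic reticulum, averaged 6.98 ± 0.362 FPKM in si-E2F3, 4.70 ± 0.165 FPKM in si-E2F1 and 7.74 ± 0.711 FPKM in Control (SD, n = 3 each), a fall of 0.61 on the log2 scale in si-E2F1 (adjusted p = 2.51e-04). EIF2AK1, the haem-regulated kinase HRI, averaged 115 ± 10.1 FPKM in si-E2F3, 86.0 ± 8.16 FPKM in si-E2F1 and 110 ± 5.95 FPKM in Control and fell by 0.35 in si-E2F1 (adjusted p = 0.00709). The kinases PKR (EIF2AK2) and GCN2 (EIF2AK4) passed no test in any comparison.

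In si-E2F3, 6 of 12 genes of eIF2, its exchange factor eIF2B and the eIF2alpha phosphatase fell and 2 rose (median log2 fold change -0.23). EIF2B2, the beta subunit of eIF2B, averaged 23.6 ± 1.65 FPKM in si-E2F3, 52.2 ± 3.21 FPKM in si-E2F1 and 44.0 ± 1.30 FPKM in Control, with a fall of 0.88 in si-E2F3 (adjusted p = 6.10e-06) and a rise of 0.24 in si-E2F1 (adjusted p = 0.0139). EIF2S1, the subunit that the kinases phosphorylate, was at 244 ± 1.74 FPKM in si-E2F3, 342 ± 0.956 FPKM in si-E2F1 and 323 ± 3.97 FPKM in Control and fell by 0.40 in si-E2F3 (adjusted p = 5.44e-06). EIF2S2 and EIF2B3 fell there by 0.40 and 0.39. EIF2S3, the gamma subunit that binds GTP, showed another order: 203 ± 5.65 FPKM in si-E2F3, 113 ± 2.49 FPKM in si-E2F1 and 179 ± 3.03 FPKM in Control, a fall of 0.66 in si-E2F1 (adjusted p = 9.85e-07). In si-E2F1, 5 of the 12 rose, among them PPP1CC and PPP1CB, catalytic subunits of the phosphatase (0.38 and 0.31), and EIF2B3 (0.31), and EIF2S3 alone fell (median 0.11).

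**Figure D3:**
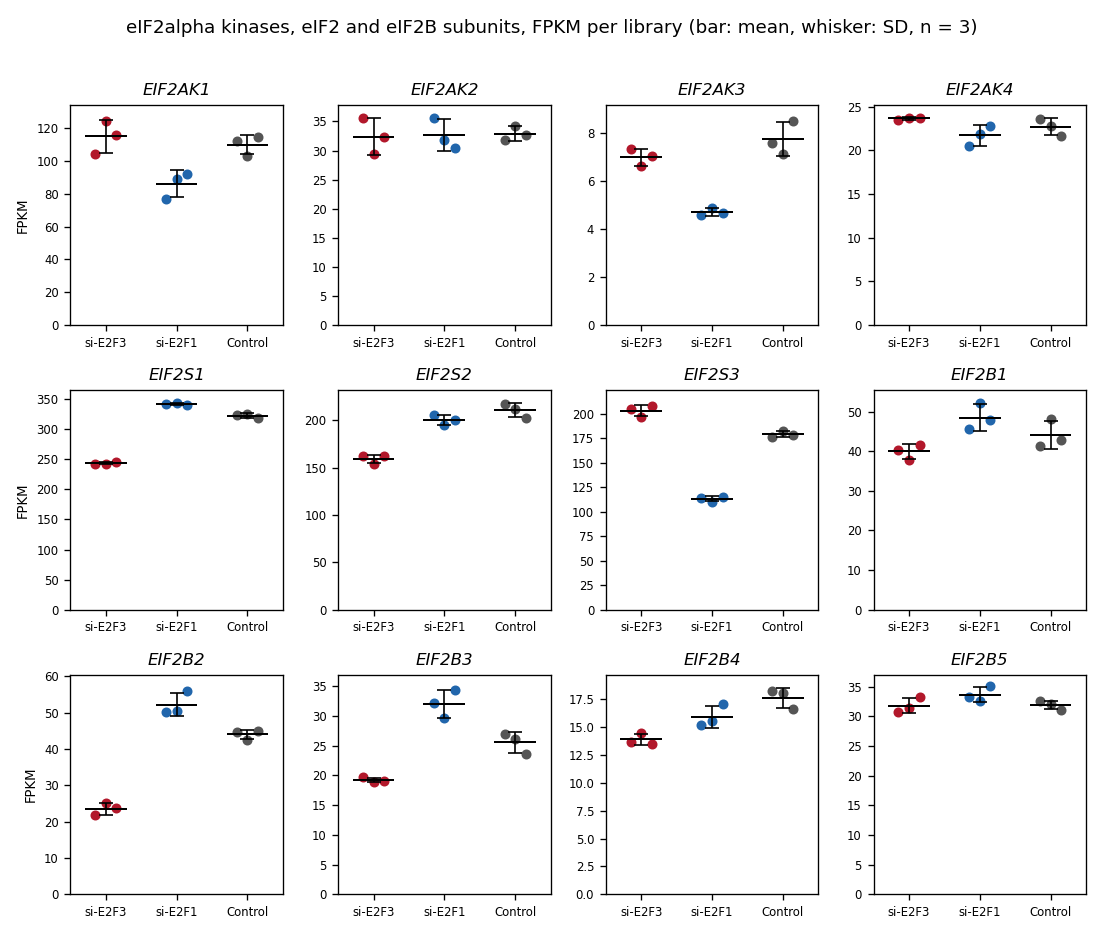
FPKM (vertical axes, starting at 0) of the 4 eIF2alpha kinases and the 8 subunits of eIF2 and eIF2B in every library of si-E2F3, si-E2F1 and Control; points are libraries, bars are means and whiskers are SDs of 3 libraries. EIF2B2, EIF2B3, EIF2S1 and EIF2S2 are lowest in si-E2F3, and EIF2S3, EIF2AK1 and EIF2AK3 are lowest in si-E2F1.

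Of 8 regulators of the kinases, 2 rose and 2 fell in si-E2F3 and 0 were called in si-E2F1 by limma (1 at an unadjusted p under 0.05). NCK1, an adaptor that brings a phosphatase to eIF2, rose by 0.55 in si-E2F3 (adjusted p = 1.62e-04), and GCN1, the partner of GCN2, fell by 0.32 (adjusted p = 0.0258). TARBP2, an inhibitor of PKR, was 0.18 higher in si-E2F1 with an adjusted p of 0.0501.

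The known targets of ATF4 outside the members were counted by function. Of 10 genes of amino acid and one-carbon synthesis, 3 fell and 2 rose in si-E2F3 (median -0.25). In si-E2F1, 2 fell and 1 rose (median 0.06). SHMT2, mitochondrial serine hydroxymethyltransferase, was at 137 ± 3.70 FPKM in si-E2F3, 184 ± 11.5 FPKM in si-E2F1 and 236 ± 3.46 FPKM in Control and fell in each (0.79, adjusted p = 2.23e-06, and 0.36, adjusted p = 2.50e-04). PHGDH, the entry enzyme of serine synthesis, fell by 0.56 in si-E2F1 (adjusted p = 8.22e-05), with a difference of 0.10 in si-E2F3 (adjusted p = 0.24). CTH, which makes cysteine, rose by 0.42 in si-E2F3 (adjusted p = 0.00205), and ALDH18A1, of proline synthesis, rose by 0.36 in si-E2F1 (adjusted p = 1.23e-04).

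Of 8 amino acid carriers, 4 fell and 1 rose in each knockdown against Control (median -0.21 in si-E2F3 and -0.15 in si-E2F1). SLC7A5, the large neutral amino acid carrier LAT1, averaged 263 ± 13.0 FPKM in si-E2F3, 155 ± 4.81 FPKM in si-E2F1 and 319 ± 6.88 FPKM in Control, a fall of 1.04 in si-E2F1 (adjusted p = 1.98e-07) and of 0.28 in si-E2F3 (adjusted p = 7.92e-04). SLC3A2, its heavy chain, fell by 0.50 in si-E2F1 and by 0.28 in si-E2F3. SLC6A9, a glycine carrier, averaged 10.1 ± 0.351 FPKM in si-E2F3, 13.0 ± 0.505 FPKM in si-E2F1 and 18.8 ± 0.821 FPKM in Control and fell by 0.84 in si-E2F3 (adjusted p = 5.72e-06) and by 0.50 in si-E2F1 (adjusted p = 1.38e-04). SLC1A5, the glutamine carrier, was the gene that rose, by 0.14 in si-E2F3 and 0.33 in si-E2F1. SLC7A11, the cystine carrier and a classical ATF4 target, was not called in any comparison.

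The tRNA synthetases that ATF4 is known to drive were mixed, with 5 of 12 lower and 3 higher in si-E2F3 and 3 lower and 1 higher in si-E2F1. In si-E2F3, MARS fell by 0.71 (adjusted p = 0.00181) and GARS by 0.55 (adjusted p = 2.22e-04), whereas LARS rose by 0.31 (adjusted p = 0.00247). In si-E2F1, IARS fell by 0.56 (adjusted p = 6.82e-06). AARS passed no test.

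Other stress targets of ATF4 or CHOP were mixed too: 4 of 21 rose and 4 fell in si-E2F3, beside 21.1% and 16.4% of all tested genes. In si-E2F1, 4 rose and 5 fell, beside 20.5% and 17.3% of all tested genes. GDF15, a stress hormone, averaged 19.7 ± 3.04 FPKM in si-E2F3, 29.2 ± 3.04 FPKM in si-E2F1 and 35.3 ± 3.0 FPKM in Control and fell by 0.82 in si-E2F3 (adjusted p = 3.83e-04). ERO1A, an oxidase of the endoplasmic reticulum, rose by 0.84 in si-E2F3 (adjusted p = 1.41e-05) and by 0.26 in si-E2F1 (adjusted p = 0.0149). BBC3, the pro-apoptotic protein PUMA, rose by 0.69 in si-E2F1 (adjusted p = 2.45e-04). Among 21 tested bZIP factors that can pair with the members, 5 fell and 2 rose in si-E2F3, led by ATF7 (fall of 0.94; adjusted p = 5.37e-05) and NFE2L2, the factor NRF2 (fall of 0.51; adjusted p = 3.35e-05). In si-E2F1, 3 fell and 2 rose, led by the fall of CEBPA by 0.69 (adjusted p = 1.40e-04). ATF5, CEBPG and JDP2 are counted among the stress targets as well.

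**Figure D4:**
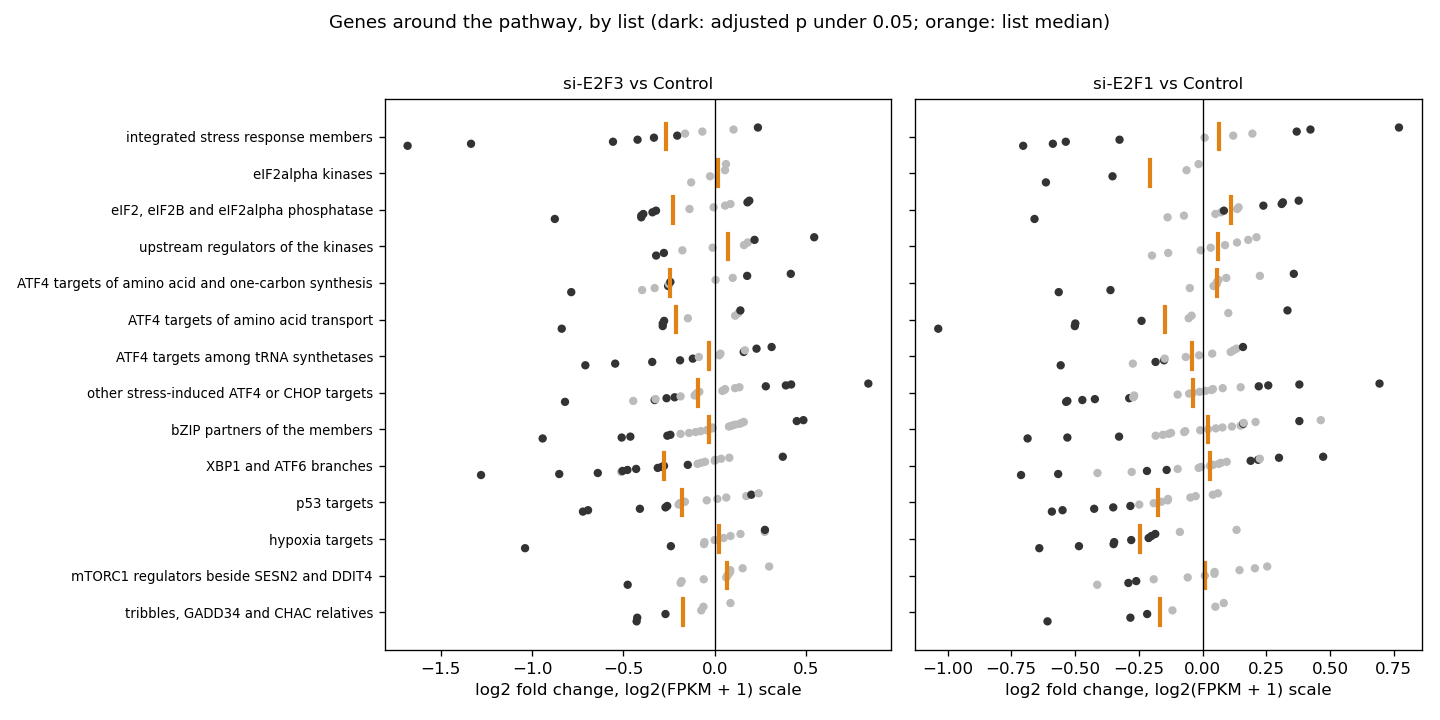
Log2 fold changes on the log2(FPKM + 1) scale (horizontal axes) of the tested genes of each list, for si-E2F3 against Control (left) and si-E2F1 against Control (right), 2 comparisons that share the Control libraries; dark points had a limma adjusted p under 0.05 and orange bars are list medians. In si-E2F3, CHAC1 and SESN2 (-1.68 and -1.34) lie farther out than any gene of the other lists plotted, and in si-E2F1 SLC7A5 (-1.04) and TRIB3 (0.77) mark the ends.

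The other branches of the unfolded protein response were set beside the members. Of 19 genes of the XBP1 and ATF6 branches, 10 fell and 1 rose in si-E2F3 (median -0.28), and 4 fell and 4 rose in si-E2F1 (median 0.03, with values down to -0.003 under other scalings). PDIA4, a folding enzyme, averaged 55.2 ± 0.498 FPKM in si-E2F3, 138 ± 3.68 FPKM in si-E2F1 and 135 ± 2.24 FPKM in Control, a fall of 1.28 in si-E2F3 (adjusted p = 1.73e-08). HYOU1, a chaperone, fell by 0.85 in si-E2F3 and by 0.71 in si-E2F1, and CANX, calnexin, fell by 0.64 in si-E2F3. EDEM1, of the degradation of misfolded proteins, rose by 0.37 in si-E2F3 and fell by 0.57 in si-E2F1.

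SESN2 is known as a p53 target as well, and DDIT4 as a hypoxia target. Of 14 p53 targets, 5 fell and 1 rose in si-E2F3 and 5 fell in si-E2F1 (median -0.18 in each). CDKN1A, the cell cycle inhibitor p21, averaged 59.1 ± 4.0 FPKM in si-E2F3, 66.7 ± 4.32 FPKM in si-E2F1 and 98.0 ± 1.74 FPKM in Control (falls of 0.72 and 0.55; adjusted p = 1.57e-05 and 7.80e-05), while MDM2 was not called. Of 10 hypoxia targets, 2 fell and 1 rose in si-E2F3 (median 0.02, with values down to -0.02 under other scalings), and 8 fell in si-E2F1 (median -0.25). EGLN3 fell by 1.04 in si-E2F3 and by 0.35 in si-E2F1, and ADM, adrenomedullin, fell by 0.48 in si-E2F1. Among 11 tested mTORC1 regulators beside SESN2 and DDIT4, 1 fell in si-E2F3 (CASTOR1) and 2 fell in si-E2F1 (SESN3 and RPTOR). Of 6 tested genes that are relatives of TRIB3, PPP1R15A or CHAC1 or belong to the GADD45 family, 3 fell in each knockdown. GADD45B fell by 0.43 in si-E2F3 and by 0.61 in si-E2F1, and TRIB1 fell by 0.42 in si-E2F3. GADD45A, which fell in each knockdown, is counted among the p53 targets as well. PPP1R15B is counted among the genes of eIF2, eIF2B and the phosphatase as well.

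Directly between the knockdowns, where 45.5% of all tested genes were called, the counts differed from list to list, and no difference between lists was tested. Lower in si-E2F3 than in si-E2F1 were 9 of the 12 genes of eIF2, eIF2B and the phosphatase, 12 of the 19 genes of the XBP1 and ATF6 branches and 7 of the 10 synthesis genes, with 1, 2 and 2 higher. Of the kinases, 2 of 4 were higher in si-E2F3 (EIF2AK3 by 0.49 and EIF2AK1 by 0.42), as were 4 of 10 hypoxia targets, with 1 lower. In the other ATF4 target lists and among the bZIP factors and p53 targets the calls were balanced: 2 carriers were higher and 2 lower, 5 tRNA synthetases higher and 5 lower, 6 other stress targets higher and 5 lower, 5 bZIP factors higher and 5 lower, and 4 p53 targets higher and 3 lower. Of the regulators of the kinases 1 was higher and 1 lower, and of the mTORC1 regulators 3 were higher and 2 lower. In the list of relatives of the members and GADD45 genes, 1 was higher (GADD45B) and 1 lower (TRIB1). EIF2B2 differed most within its list, by -1.11 (si-E2F3 minus si-E2F1; adjusted p = 8.30e-07).

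Genes whose profile over the 9 libraries was most like the mean of the members (mean of z-scored log2 values) were BAD (Pearson r = 0.992), ALAS1 (0.990), GARS (0.988), TMEM129 (0.984) and MTG1 (0.984), as a description over libraries that fall into 3 groups. The mean of the members was lowest in the si-E2F3 libraries (-0.81, -0.77 and -0.89), and in si-E2F1 (0.77, 0.52 and 0.29) it overlapped Control (0.54, 0.04 and 0.31). BAD averaged 45.0 FPKM in si-E2F3, 68.4 FPKM in si-E2F1 and 64.2 FPKM in Control.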

How the data were processed

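RNA of HK1 cells was extracted with a mirVana kit and sequenced after standard Illumina library preparation, per the labels' protocols. Per the submitters' processing notes, the tools were DESeq, HTSeq, HISAT2, TopHat and Trimmomatic on build GRCh38; for versions, roles, order and strand setting, "not given in the sources used here" applies. The deposited files hold FPKM per gene and library to 2 decimals, per the file headers. Of 59107 entries, the 726 without an Ensembl identifier were left out, as were 12 text lines. Symbols and coordinates are from GENCODE release 29; 120 entries stayed unnamed.

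From these, log2(FPKM + 1) of the 13777 genes that reached 1 FPKM in 3 or more libraries entered 1 limma model (limma 3.58.1, R 4.3.3; empirical Bayes with trend) with a mean per group over the 9 libraries. P-values are two-sided and were adjusted per comparison by Benjamini-Hochberg over all tested genes (threshold 0.05); no count test fits FPKM. The fit of si-E2F1 against Control was tested on simulated data with independent normal noise of the fitted spread. Such data hold no batch effect, so that test cannot show how the fit handles one. Motifs and leaders were searched in Python 3.11.15 (pandas 2.3.3), with RefSeq promoter windows and GENCODE transcripts (the principal transcript, then the longest coding sequence). Named genes were the 10 members, the knockdown targets, up to 4 called genes per list and comparison with the largest change and a mean of at least 5 FPKM, and the 5 genes most like the members. SLC7A11, AARS, MDM2, TARBP2, CASTOR1, SESN3, CD68, COL1A1, EPCAM, KRT19, PPP1R15B and the uncalled kinases were named after their values were seen. The members and all lists were chosen with earlier results of these data known. The largest share of identical values between libraries was 0.445%. Other pseudocounts, filters, scalings, the libraries compared alone, a replicate block, robust fitting, a threshold of 0.01 and leaving out each library were tried.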

Additional observations from a re-analysis of the deposited data

Results flagged for a closer look

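ASNS and DDIT4 were called in opposite directions in the knockdowns against the same Control libraries. The direct comparison is the difference of these effects in the same fit. Its p-values for genes picked by their opposite calls are therefore not independent evidence. For ASNS, the si-E2F3 minus si-E2F1 difference was -0.79 on the log2 scale (limma adjusted p = 5.48e-06), with all 3 si-E2F3 libraries below and all 3 si-E2F1 libraries above Control. For DDIT4 it was 0.94 (adjusted p = 7.73e-07), with all 3 si-E2F3 libraries above and all 3 si-E2F1 libraries below Control. Groups of 3 libraries were not tested for outlying libraries.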

How the results depend on the processing

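Of 30 member results (10 members in 3 comparisons), 24 kept direction and call in each of 18 other settings; over all 540 values, 514 did, 18 lost the call, 3 gained it and 5 changed sign. The sign changes were all of ATF4 in si-E2F1 against Control, which was near 0 and uncalled: -0.0179 with RLE scaling, -0.0235 with upper-quartile scaling, and -0.0159 to 0.0359 when 1 library was left out. The lost calls were those of CEBPB in si-E2F1 (also with no filter, adjusted p = 0.133, and TPM rescaling, 0.0555) and of PPP1R15A in si-E2F3 (also with no filter, 0.106, TPM rescaling, 0.0525, and only the 6 libraries compared, 0.0554). Same-numbered libraries deviated from their group means with r of -0.106 to 0.112 (9 pairs) over all tested genes. An r over all genes cannot decide whether same-numbered libraries share a batch effect in some genes. For DDIT3, ASNS and PPP1R15A, but for no other member, replicate 1 was the highest library in every group. With the replicate block, genes called were 4871 in si-E2F3 against Control, 4936 in si-E2F1 against Control and 5982 directly, and members called 8, 7 and 9. Under it DDIT3 gained calls in si-E2F3 (adjusted p = 0.0233) and si-E2F1 (0.0103) against Control and CEBPB lost that in si-E2F1 (0.0602). At an adjusted p under 0.01, 3244 genes were called in si-E2F3 against Control, against 5179 at 0.05. Leaving out 1 library gave 4243 to 5141 genes and 6 to 7 members in si-E2F3 against Control, 4337 to 5276 genes and 6 to 7 members in si-E2F1 against Control, and 5472 to 6160 genes and 9 members directly. No scaling moved the share of higher calls by over 10 percentage points, but lower calls outnumbered higher ones with RLE scaling in si-E2F3 against Control (2419 higher, 2652 lower), in si-E2F1 against Control with RLE (2531 and 2604) and upper-quartile scaling (2448 and 2648), and directly with RLE (3067 and 3201) and TPM rescaling (2793 and 3412). No scaling moved the median of all genes by over 0.1. Genes of the lists were not refitted one by one under every setting. The absolute depth is unknown, so no counting error can be given, and changes of genes at a few FPKM are understated.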
